A study of Mus musculus with 8 samples.

Results

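Cytochrome P450 enzymes are haem proteins that insert oxygen into lipids, hormones, vitamins and foreign compounds. Most sit in the endoplasmic reticulum and take electrons from P450 oxidoreductase (Por), while a mitochondrial group takes them from ferredoxin. Liver holds the widest range of these enzymes, and white fat is known for a smaller set that includes Cyp2e1, Cyp4b1 and the stromal enzyme Cyp1b1. In this series 72 P450 genes were measured, of 20796 genes with a single deposited symbol. A gene was a member if its symbol was Cyp followed by a number, letters and a number, which took in 95 of 45037 probe sets. One probe set stood for each gene, the one with the highest mean over the 8 arrays.

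The samples were abdominal white adipose tissue of adult mice on standard chow, in 4 groups of 2 arrays, and each array held RNA pooled from 5 mice. The groups were rsl males and rsl females of strain B10.D2.PL, homozygous for the rsl alleles, and wild type males and wild type females of strain B10.D2, homozygous for functional Rsl. Rsl genes code for KRAB zinc finger repressors that restrain sex-biased genes in liver, the P450 gene Cyp2d9 among them. The strains may differ in segments other than the Rsl genes, and effects of those segments cannot be told apart from effects of Rsl. The labels number the arrays of a group as biological replicates but leave out how mice were assigned to pools, so p-values measure only the spread between pools. One label field names liver RNA as the source and another names white adipose tissue. The adipocyte markers bear on this, since Adipoq lay between 12.83 and 13.18 and Fabp4 between 13.17 and 13.28 on the log2 scale in every pool.

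All signals are log2 values made by the authors with RMA, in which 1 unit is a doubling. Signals of different probe sets are not compared as amounts of RNA. An array's background was the highest of its non-specific control probe sets, 3.73 to 4.01 over the 8 arrays. Of the 72 genes, 29 were above background on all 8 arrays, 13 more on both arrays of at least 1 group, 11 on some arrays but in no whole group, and 19 on none. The 42 genes of the first pair of classes are called above background here. Those of the 13 that passed only in the group where they were high had to differ between groups, so a count over the 42 is a description. The member nearest above the bound was Cyp46a1, by 0.109 in wild type males, and the nearest below was Cyp11b2, which missed by 0.006 in rsl females. Arrays had 41 and 40 members above background in rsl males against 43 and 46 in wild type males. In females there were 43 and 32 in rsl against 40 and 32 in wild type. The share of all probe sets above background was 68.3% and 67.7% in rsl males against 68.9% and 71.0% in wild type males. In females it was 69.1% and 62.8% in rsl against 69.2% and 64.2% in wild type. The arrays with 32 members thus also had the lowest shares of all probe sets.

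Marker transcripts of other organs differed between pools. The mean of 12 epididymis genes was 12.07 and 11.51 in rsl males, 7.19 and 5.18 in wild type males, and 3.82 to 4.04 in the 4 female pools. The mean of 12 liver genes was 4.09 and 4.16 in rsl males, 5.04 and 6.0 in wild type males, and 4.07 to 4.26 in females. The mean of 10 skeletal muscle genes was 4.45 to 4.59 in the 4 male pools, 7.20 and 5.56 in rsl females and 7.71 and 7.39 in wild type females. The mean of 11 adipocyte genes was lowest in rsl male 1, at 11.55, against 12.02 to 12.19 in the other pools. The gap between 3' and 5' probe sets of Gapdh, a sign of RNA integrity, was 0.79 and 1.03 in rsl males against 0.68 and 0.71 in wild type males, and 0.66 and 0.50 in rsl females against 0.72 and 0.59 in wild type females. In such bulk samples, fewer cells of a type and less RNA per cell cannot be told apart.

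**Figure D1:**
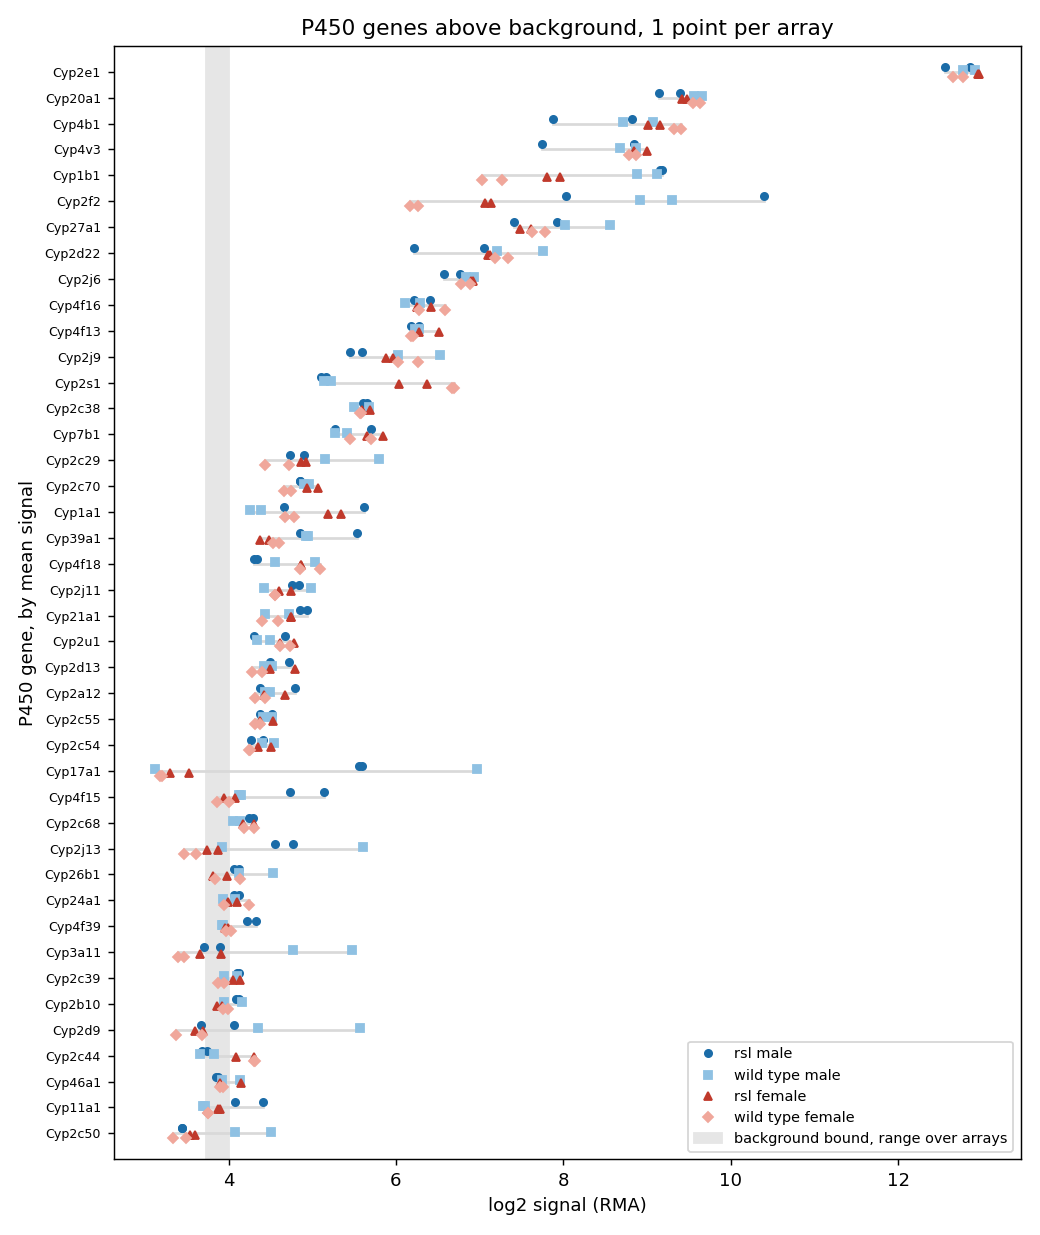
Log2 signal (x axis) of the 42 P450 genes above background (y axis, ordered by mean signal), with 1 point per array and a grey band for the range of the background bound, 3.73 to 4.01. The arrays of Cyp2e1 sit between 12.56 and 12.97, while Cyp17a1 runs from 3.12 to 6.97 and Cyp2f2 from 6.17 to 10.40.

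Promoter sequences are shown for 4 genes with sex or strain calls. Cyp1b1 and Cyp2s1 differed between the sexes in both strains. Cyp3a11 and Cyp2c50 were highest in wild type males, and each kept its strain call in males under 7 of 15 alternatives. Each sequence is the 250 bases before the RefSeq start, read 5′ to 3′ on the gene's strand, in the build GRCm38.p6. Capitals mark GCGTG or its reverse complement, the core bound by the aryl hydrocarbon receptor, in the first pair, and CAAAGTNCA, a sequence like that bound by hepatocyte nuclear factor 4, in the second pair. The motifs were chosen with the sequences in view, and both strands were searched.
Cyp1b1, chr17:79715062-79715311, minus strand: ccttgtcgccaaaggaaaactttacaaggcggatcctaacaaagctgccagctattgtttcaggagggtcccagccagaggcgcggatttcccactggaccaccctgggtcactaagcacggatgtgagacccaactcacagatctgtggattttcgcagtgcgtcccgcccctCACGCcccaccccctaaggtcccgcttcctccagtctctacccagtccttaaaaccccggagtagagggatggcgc
Cyp2s1, chr7:25816526-25816775, minus strand: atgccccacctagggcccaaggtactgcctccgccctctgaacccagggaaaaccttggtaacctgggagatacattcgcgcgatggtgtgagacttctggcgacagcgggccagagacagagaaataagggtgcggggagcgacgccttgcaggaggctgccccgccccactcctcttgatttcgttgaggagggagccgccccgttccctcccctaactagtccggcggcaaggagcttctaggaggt
Cyp3a11, chr5:145879855-145880104, minus strand: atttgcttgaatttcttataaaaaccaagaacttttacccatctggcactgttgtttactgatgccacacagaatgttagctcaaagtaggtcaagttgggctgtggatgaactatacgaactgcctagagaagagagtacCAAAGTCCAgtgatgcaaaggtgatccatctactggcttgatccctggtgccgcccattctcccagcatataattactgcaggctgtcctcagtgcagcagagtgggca
Cyp2c50, chr19:40089429-40089678, plus strand: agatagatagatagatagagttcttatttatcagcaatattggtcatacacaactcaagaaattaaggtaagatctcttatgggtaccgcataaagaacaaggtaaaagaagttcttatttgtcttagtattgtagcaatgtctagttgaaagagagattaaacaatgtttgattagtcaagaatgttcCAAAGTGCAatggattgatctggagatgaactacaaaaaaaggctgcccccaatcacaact
RefSeq promoters were at hand for 53 of the 72 genes. The letters GCGTG occurred in 13 of these 53 genes, Cyp1b1 and Cyp1a1 among them, and in 28.2% of the 32851 promoter windows in the table. The letters CAAAGTNCA occurred in 11 of the 53, against 1.19% of all windows, and the 11 were 5 Cyp2c genes, 3 Cyp3a genes, Cyp2d26, Cyp8b1 and Cyp26a1. A P450 gene was counted if any of its windows matched, while the percentages are of single windows, so counts and percentages are not like for like. A match is a description of the letters and not a bound site. By RefSeq, 13 members lie on chromosome 19, 10 each on chromosomes 4, 7 and 15, 8 on chromosome 17 and 6 on chromosome 5, and 0 on chromosome 13, which carries the Rsl genes.

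Between the strains in males, 2 of the 42 genes above background passed the threshold, an adjusted p under 0.05 in limma. That is 4.76% of them and 2.78% of all 72 measured genes. In the same comparison 1.32% of all probe sets and 1.86% of probe sets above background were called. Both genes were lower in rsl, where 0.828% of all probe sets were called lower. Of the 42 genes, 15 (35.7%) had an unadjusted p under 0.05 in limma, against 20.6% of all probe sets. Between the strains in females limma called 0 of 42, against 0.209% of all probe sets and 0.295% of those above background, and 4 (9.52%) had an unadjusted p under 0.05, against 11% of all probe sets. In the average over the sexes limma called 0, against 1.19% and 1.68%, with 15 at an unadjusted p under 0.05, against 21.2% of all probe sets. For the difference of the strain effect between males and females limma called 0, against 0.0577% and 0.0824%, with 10 (23.8%) at an unadjusted p under 0.05, against 10.8% of all probe sets.

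Between males and females 5 members (11.9%) were called in rsl, against 12.3% of all probe sets and 17.2% of those above background. In wild type 5 members (11.9%) were called, against 3.83% and 5.3%. Over all 72 measured genes, without the filter on background, limma called 5 (6.94%) in rsl and 6 (8.33%) in wild type. The median differences of the 42 genes were -0.01 between strains in males, 0.11 between strains in females, -0.02 between sexes in rsl and 0.11 between sexes in wild type, against 0.00, 0.01, -0.03 and -0.01 over all probe sets. The pools did not overlap for 20 members between strains in males and 28 in females, where 51.5% and 55.4% of probe sets above background had no overlap. Between the sexes 25 members in rsl and 26 in wild type had no overlap, against 61.6% and 56.9%.

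P450 enzymes that act on foreign compounds made up 35 of the measured genes, of which 19 were above background. Cyp2e1, the ethanol and acetone oxidase of liver and fat, had 12.56 and 12.86 in rsl males against 12.78 and 12.92 in wild type males, and 12.97 and 12.95 in rsl females against 12.78 and 12.66 in wild type females. Its arrays overlapped between the strains in males and lay apart in females, and no comparison passed the threshold. The difference of rsl from wild type was -0.13 ± 0.11 (SE, 95% interval -0.40 to 0.13) in males and 0.24 ± 0.11 (-0.03 to 0.51) in females. Cyp2d22, a drug-oxidising Cyp2d gene, had 6.22 and 7.05 in rsl males against 7.21 and 7.76 in wild type males, and 7.10 and 7.12 in rsl females against 7.34 and 7.18 in wild type females. The 2 strains did not overlap in males or females, with differences of -0.85 ± 0.28 (limma adjusted p = 0.157) and -0.15 ± 0.28 (adjusted p = 0.889).

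Cyp1b1, which oxidises oestrogens and polycyclic hydrocarbons and is induced through the aryl hydrocarbon receptor, was higher in males of both strains. It had 9.18 and 9.15 in rsl males against 8.88 and 9.12 in wild type males, and 7.80 and 7.96 in rsl females against 7.27 and 7.03 in wild type females, so that every male pool lay above every female pool. The excess of males over females was 1.29 ± 0.12 in rsl (2.44-fold, adjusted p = 0.00254, n = 2 against 2, limma) and 1.85 ± 0.12 in wild type (3.59-fold, adjusted p = 0.00122). A second probe set gave 1.33 and 1.75 (adjusted p = 0.00167 and 0.00110), and the last one, near background, gave -0.23 and 0.16. Between the strains, Cyp1b1 was 0.73 ± 0.12 higher in rsl than in wild type females, which missed the threshold (adjusted p = 0.104) but passed in a fit of only the female pools (adjusted p = 0.0116), and differed by 0.17 ± 0.12 in males (adjusted p = 0.474). The second probe set gave 0.29 in females (adjusted p = 0.408). The difference between the sex effects was -0.56 ± 0.17 (interaction, adjusted p = 0.316). The Cyp1b1 promoter printed above holds 1 GCGTG match, 76 bases before the start.

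Cyp2s1, an enzyme of epithelia that is also induced through the aryl hydrocarbon receptor, had the opposite direction. Its signal was 5.16 and 5.10 in rsl males against 5.22 and 5.14 in wild type males, and 6.04 and 6.37 in rsl females against 6.69 and 6.67 in wild type females. All male pools lay below all female pools, by 1.07 ± 0.11 in rsl (adjusted p = 0.00361) and 1.5 ± 0.11 in wild type (adjusted p = 0.00201). In females it was 0.47 ± 0.11 lower in rsl than in wild type, with no overlap of the pools and no call (adjusted p = 0.234). Of 6 mesothelium markers 4 were also called lower in males than females in each strain, against 7.61% of all probe sets in rsl and 2.22% in wild type. The list mean was 7.22 and 7.36 in rsl males against 7.35 and 7.43 in wild type males. It was 8.11 and 8.20 in rsl females against 8.58 and 8.56 in wild type females. The part of these markers in the result was not tested. No GCGTG match lay in the printed Cyp2s1 promoter, which says nothing on sites outside that window.

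**Figure D2:**
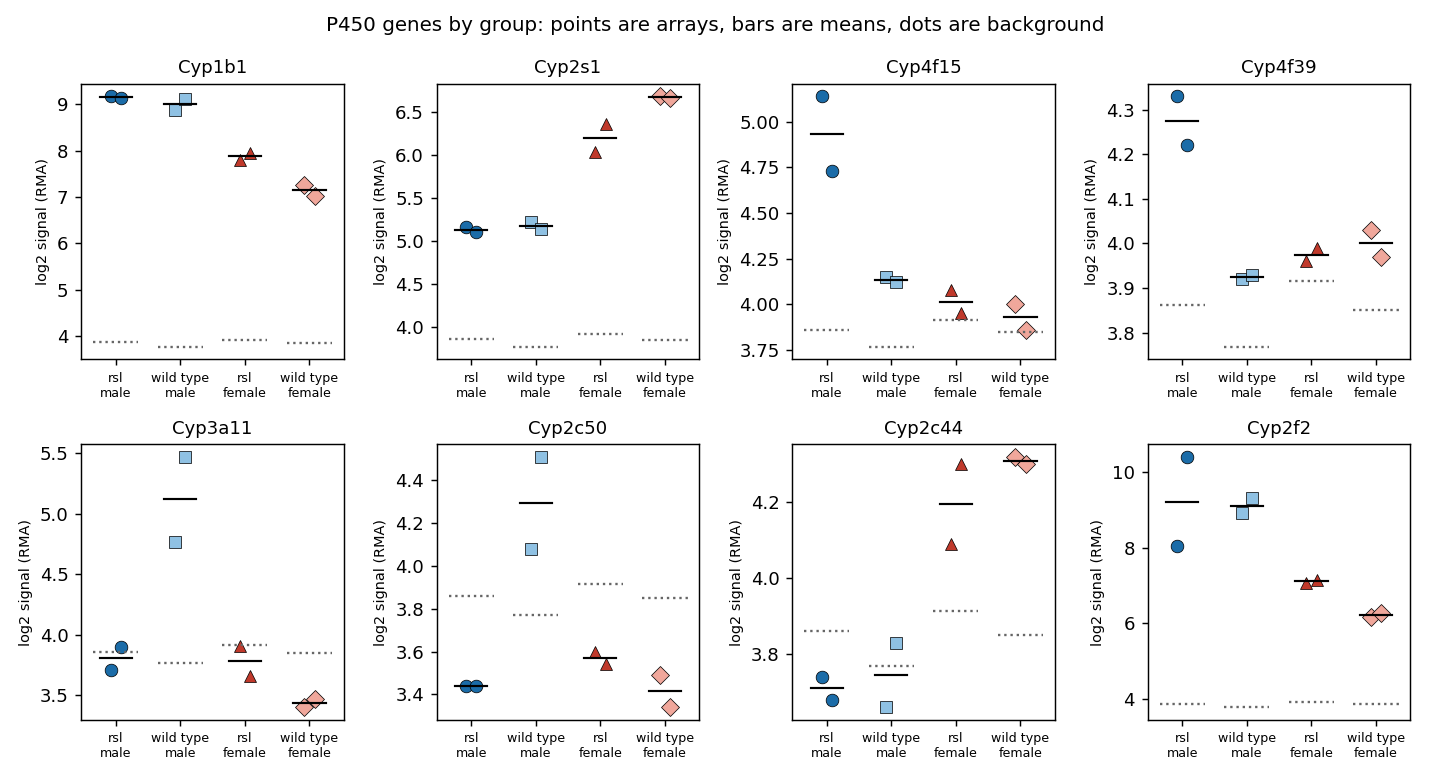
Log2 signal (y axis) of 8 P450 genes in rsl males, wild type males, rsl females and wild type females (x axis). Points are arrays, black bars are means of 2 arrays and dotted lines are the mean background bound of the group. Cyp1b1 is higher and Cyp2s1 lower in males of both strains, Cyp3a11 and Cyp2c50 stand above background in wild type males, and the rsl male arrays of Cyp2f2 lie at 8.03 and 10.40.

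Cyp1a1, the classic target of the same receptor, had 4.66 and 5.62 in rsl males against 4.39 and 4.26 in wild type males, and 5.19 and 5.35 in rsl females against 4.78 and 4.67 in wild type females. The rsl pools lay above the wild type pools within each sex, but the differences of 0.82 ± 0.27 in males and 0.54 ± 0.27 in females did not pass (adjusted p = 0.163 and 0.525). The Cyp1a1 female difference passed in a fit of only the female pools (adjusted p = 0.0186). The male difference was 1.3 without rsl male 1, where rsl male 2 is the only rsl male pool. Rsl male 1, at 4.66, lay closer to the wild type males. Ahr, the receptor itself, was 0.71 lower in males than females in rsl (adjusted p = 0.0170) and 0.43 lower in wild type (adjusted p = 0.136). Arnt, its partner, passed in no comparison, and its repressor Ahrr was not above background on any array.

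Cyp2f2, known for the activation of naphthalene in the airway, had the widest gap between the rsl male pools of the 42 genes. It had 8.03 and 10.40 in rsl males against 8.92 and 9.30 in wild type males, and 7.07 and 7.14 in rsl females against 6.17 and 6.26 in wild type females. Every male pool lay above every female pool, yet the sex difference of 2.11 ± 0.64 in rsl and 2.90 ± 0.64 in wild type missed the threshold (adjusted p = 0.0799 and 0.0618). The wild type difference passed in a fit of only the wild type groups (adjusted p = 0.00251) and with the replicate number as a block (adjusted p = 0.0477), among others. The difference of rsl from wild type males was 0.10 ± 0.64 with all pools. It was 1.29 without rsl male 1 and -1.08 without rsl male 2, each with 1 rsl male pool left. Its direction in males thus rested on which rsl pool was used. In females rsl was 0.89 ± 0.64 higher (adjusted p = 0.660), and in a fit of only the female pools the same difference had an adjusted p of 0.00197.

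The remaining genes of this class lay nearer to background. Cyp2c38 stayed between 5.5 and 5.69 and Cyp2c70, which makes muricholic acids in mouse liver, between 4.66 and 5.07 over all pools. Cyp2d13, Cyp2a12, Cyp2c55, Cyp2c54 and Cyp2c68 lay between 4.05 and 4.80 on all arrays, and Cyp2c39 and Cyp2b10, the phenobarbital-inducible Cyp2b gene, between 3.86 and 4.16. Cyp2c44, an arachidonic acid epoxygenase now named Cyp2c23, had 3.74 and 3.68 in rsl males against 3.66 and 3.83 in wild type males, and 4.09 and 4.30 in rsl females against 4.32 and 4.30 in wild type females. It was above background in both female groups and not in either male group, was at least 1.26-fold lower in males than females in rsl (adjusted p = 0.0247), and was lower by 0.56 ± 0.10 in wild type (adjusted p = 0.0304). Its probe set is of a type that can match several transcripts, and closely related Cyp2c genes could share its signal.

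Several liver P450 genes were highest in wild type males. Cyp3a11, the main drug-oxidising Cyp3a gene of mouse liver, had 3.71 and 3.90 in rsl males against 4.77 and 5.47 in wild type males, and 3.91 and 3.66 in rsl females against 3.40 and 3.47 in wild type females. Cyp2c50, a liver epoxygenase, had 3.44 in both rsl male pools against 4.08 and 4.51 in wild type males, and 3.60 and 3.54 in rsl females against 3.49 and 3.34 in wild type females. Both passed the filter on background only through wild type males. In the other groups Cyp2c50 was below the bound on every array, and Cyp3a11 was above it only in rsl male 2 and rsl female 1. Compared with wild type males, Cyp3a11 was 1.32 ± 0.22 lower in rsl males (limma adjusted p = 0.0460) and Cyp2c50 was at least 1.35-fold lower (adjusted p = 0.0450). Compared with wild type females, the same wild type male pools were higher, at least 2.41-fold for Cyp3a11 (adjusted p = 0.0113) and at least 1.36-fold for Cyp2c50 (adjusted p = 0.0212). Both comparisons share the wild type male arrays and are not separate evidence.

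Neither strain call held in every setting. Without any 1 of the 4 female arrays no member was called between strains in males, without rsl male 1 or wild type male 2 neither gene was called, and a fit of the male arrays alone called 0 members and 0 of all probe sets. Without wild type male 1 both remained, with Cyp3a11 lower by 1.67 and Cyp2c50 at least 1.56-fold lower, and without rsl male 2 both also remained. On means of all probe sets of a gene only Cyp2c50 was called, and with values floored at the background bound only Cyp3a11 of this pair was.

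The same order of pools appeared in 2 more liver P450 genes and in transcripts of hepatocytes. Cyp2d9, the male-specific steroid hydroxylase of mouse liver that the Rsl genes repress, had 4.07 and 3.67 in rsl males against 4.35 and 5.57 in wild type males, and 3.60 and 3.69 in rsl females against 3.68 and 3.37 in wild type females. It was 1.09 ± 0.36 lower in rsl than in wild type males, which did not pass (adjusted p = 0.157). Without wild type male 1, with 1 wild type male pool left, it was 1.70 lower. Cyp2c29 had 4.90 and 4.74 in rsl males against 5.15 and 5.80 in wild type males, and 4.93 and 4.87 in rsl females against 4.72 and 4.44 in wild type females. It differed by -0.65 ± 0.21 between the strains in males (adjusted p = 0.149).

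Wild type male 2 was the highest of the 8 pools for all of Cyp3a11, Cyp2c50, Cyp2d9 and Cyp2c29, and wild type male 1 the second highest. Serpina1c, a secreted protease inhibitor of liver, had 4.13 and 4.30 in rsl males, 6.83 and 8.66 in wild type males, and 3.92 to 4.22 in the female pools. Ttr, the thyroxine carrier, had 4.42 and 4.74 in rsl males, 6.98 and 8.60 in wild type males, and 4.13 to 5.10 in females. Apoa1 and Apoa2 had the same pair of highest pools, at 5.06 and 6.36 and at 5.47 and 6.89 in wild type males. Alb was less distinct, with 4.31 and 5.13 in rsl males, 6.82 and 8.14 in wild type males, and 6.25 to 6.91 in females. The part of hepatocyte RNA in the P450 results was not tested. Cyp2d10, Cyp2d26 and Cyp3a25, also liver genes, were not above background on any array, and Cyp1a2 passed it in wild type male 2 alone, at 3.77. Of the 12 liver markers, 3 were called lower in rsl than in wild type males, against 0.828% of all probe sets.

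**Figure D3:**
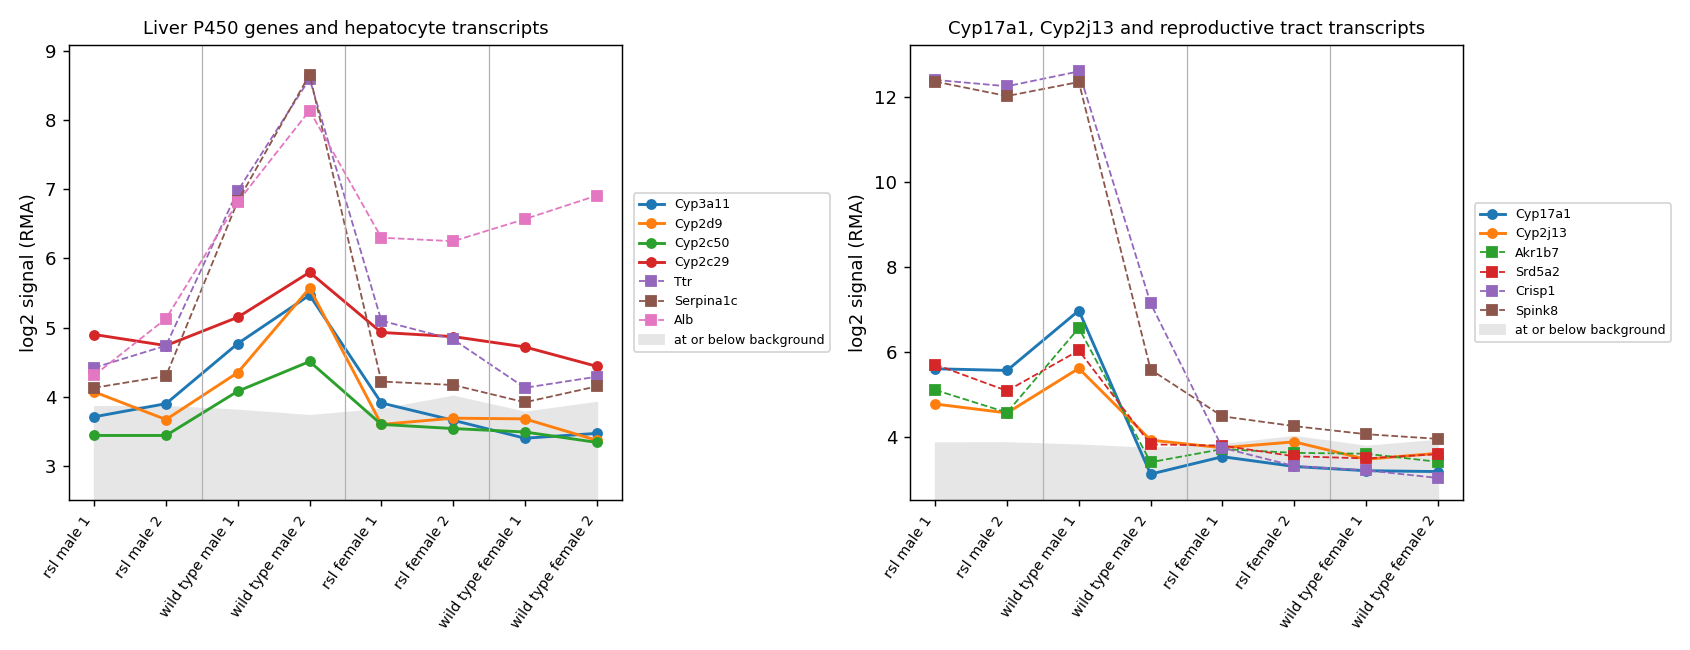
Log2 signal (y axis) in each of the 8 pools (x axis) of liver P450 genes with hepatocyte transcripts (left) and of Cyp17a1 and Cyp2j13 with transcripts of the male tract and steroid metabolism (right). Solid lines are P450 genes, dashed lines are other genes, lines only join points of a gene, and grey marks background. The left genes peak in wild type male 2, and those on the right are lower in wild type male 2 than in the other male pools.

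P450 enzymes of steroid hormone synthesis were represented by 6 genes, of which Cyp17a1, Cyp11a1 and Cyp21a1 were above background and Cyp19a1, Cyp11b1 and Cyp11b2 were not. Cyp17a1, the hydroxylase and lyase on the way to androgens, had 5.60 and 5.56 in rsl males against 6.97 and 3.12 in wild type males, and 3.53 and 3.30 in rsl females against 3.20 and 3.18 in wild type females. It was above background in 3 of the 4 male pools and in 0 of the 4 female pools. In rsl it was at least 3.18-fold higher in males than females, without a call (adjusted p = 0.229). That difference passed in a fit of only the rsl groups (adjusted p = 0.0034), which leaves out the wide gap between the wild type male pools. The difference of rsl from wild type males was 0.54 ± 1.03 (adjusted p = 0.817) with all pools and -1.39 without wild type male 2 (adjusted p = 0.0158). Without wild type male 1, whose removal leaves a pool below background, Cyp17a1 was at least 3.61-fold higher in rsl males, so its direction depended on 1 pool.

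Some other transcripts, chosen after their values were seen, were also lower in wild type male 2 than in wild type male 1. Akr1b7, an aldose reductase of the vas deferens and adrenal gland, had 5.10 and 4.57 in rsl males and 6.56 and 3.40 in wild type males. Srd5a2, the steroid reductase of the male tract, had 5.70 and 5.08 in rsl males and 6.03 and 3.82 in wild type males. Crisp1, a secretory protein of the epididymis, had 12.40 and 12.25 in rsl males and 12.60 and 7.14 in wild type males. The epididymis genes Lcn8 and Lcn9 had the opposite order in wild type males, at 3.84 and 5.45 and at 4.08 and 5.56. Of 4 measured Leydig cell markers, Lhcgr and Hsd17b3 were not above background on any array and Star and Agt were above it on all 8. Agt, the angiotensin precursor, was called higher in males than females in both strains. Over all probe sets 4.73% in rsl and 1.61% in wild type were called higher. Star was called lower in males than females in rsl, where 7.61% of all probe sets were called lower. Sperm transcripts did not follow this order, with Ldhc at 5.42 and 4.36 in rsl males and 6.64 and 7.45 in wild type males. What these transcripts share with the Cyp17a1 signal was not tested.

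Cyp11a1, which cleaves the side chain of cholesterol, had 4.41 and 4.08 in rsl males against 3.72 and 3.70 in wild type males, and 3.90 and 3.87 in rsl females against 3.76 in both wild type female pools. It was above background in rsl males and rsl female 1, and its difference of 0.53 ± 0.11 between the strains in males did not pass (adjusted p = 0.0674). Its other 2 probe sets were not above background on any array and differed by -0.05 and -0.01. Cyp21a1, the steroid hydroxylase of the adrenal cortex, had 4.85 and 4.94 in rsl males against 4.72 and 4.44 in wild type males, and 4.75 in both rsl female pools against 4.40 and 4.59 in wild type females. The strains did not overlap, with an average difference of 0.28 ± 0.08 (adjusted p = 0.128). The other Cyp21a1 probe set, above background on 7 arrays, gave an average difference of 0.01 (adjusted p = 0.963). Among 12 measured partners of steroid synthesis, 0 passed between strains in either sex, against 1.32% of all probe sets in males and 0.209% in females. In the comparison of males with females 1 was higher and 2 were lower in rsl, against 4.73% and 7.61% of all probe sets. In wild type 1 was higher, against 1.61%. Hsd11b1, which regenerates active glucocorticoid, was the higher one, by 1.09 in rsl and 1.64 in wild type (adjusted p = 0.0270 and 0.0150). Star, which carries cholesterol into mitochondria, and Hsd11b2 were the lower ones in rsl, by 0.68 and 0.84.

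P450 enzymes of fatty acids and eicosanoids made up 17 genes, of which 12 were above background. Cyp4b1, which hydroxylates fatty acids in lung and fat, had 7.88 and 8.82 in rsl males against 8.71 and 9.07 in wild type males, and 9.01 and 9.16 in rsl females against 9.41 and 9.32 in wild type females. Cyp4v3, a fatty acid hydroxylase, had 7.74 and 8.84 in rsl males against 8.68 and 8.87 in wild type males, and 8.85 and 9.0 in rsl females against 8.87 and 8.79 in wild type females. For both genes rsl male 1 was the lowest of the 8 pools, as it was for the means of the adipocyte, endothelium, macrophage and mesothelium markers. The endothelium mean was 6.84 there against 7.73 to 8.26 in the other pools. The part of these markers in the result was not tested. Cyp4b1 and Cyp4v3 differed between the strains in males by -0.54 ± 0.28 and -0.48 ± 0.31 (limma adjusted p = 0.329 and 0.426). Without rsl male 2, which leaves rsl male 1 alone, they differed by -1.01 and -1.03.

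Cyp4f15, of a subfamily that oxidises leukotrienes and fatty acids, was higher in rsl males than in the other groups. It had 5.14 and 4.73 in rsl males against 4.15 and 4.12 in wild type males, and 4.08 and 3.95 in rsl females against 4.0 and 3.86 in wild type females. The excess over rsl females was 0.92 ± 0.14 (1.89-fold, adjusted p = 0.0103). The excess over wild type males was 0.80 ± 0.14 and fell short of the threshold (adjusted p = 0.0503), and it passed under 5 alternatives, among them the replicate block (adjusted p = 0.0335). These comparisons share the rsl male arrays. Cyp4f39, which hydroxylates very long fatty acids of the skin barrier, had 4.33 and 4.22 in rsl males against 3.92 and 3.93 in wild type males, and 3.96 and 3.99 in rsl females against 4.03 and 3.97 in wild type females. It was 0.30 ± 0.07 higher in rsl males than rsl females (adjusted p = 0.0433), close to background. It kept its call under 5 of 15 alternatives and lost it, among others, with the replicate block (adjusted p = 0.0558). The mean of the epididymis list was also highest in both rsl male pools, and its part in these differences was not tested.

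Cyp4f16 lay between 6.11 and 6.59, Cyp4f13 between 6.18 and 6.51, Cyp2j6 between 6.58 and 6.93, Cyp2j11 between 4.43 and 4.98 and Cyp2u1 between 4.30 and 4.78. Cyp2j9 had 5.45 and 5.59 in rsl males against 6.02 and 6.53 in wild type males, and 5.88 and 5.96 in rsl females against 6.02 and 6.27 in wild type females. It was below wild type in the rsl pools of each sex, by 0.75 ± 0.17 in males (adjusted p = 0.0822, and 0.0417 with the replicate block) and 0.23 in females. Cyp4f18, which inactivates leukotriene B in neutrophils, had 4.31 and 4.34 in rsl males against 4.55 and 5.03 in wild type males, and 4.87 in both rsl female pools against 4.86 and 5.09 in wild type females, with no call. The macrophage mean was likewise lowest in rsl males, at 7.53 and 7.86, against 8.13 and 8.46 in wild type males. Cyp2j13 had 4.77 and 4.56 in rsl males against 5.61 and 3.92 in wild type males, and 3.74 and 3.88 in rsl females against 3.47 and 3.61 in wild type females, an order of male pools like that of Cyp17a1. In rsl, Cyp2j13 was higher in males than females without a call, and passed in a fit of only the rsl groups (limma adjusted p = 0.0323). Cyp4a14, Cyp4a31, Cyp4f14, Cyp4x1 and Cyp2j5 were not above background on any array.

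Sterol P450 genes numbered 6, with 4 above background. Cyp27a1, the mitochondrial sterol hydroxylase, had 7.41 and 7.93 in rsl males against 8.02 and 8.56 in wild type males, and 7.48 and 7.61 in rsl females against 7.78 and 7.63 in wild type females. It was 0.62 ± 0.22 lower in rsl than in wild type males without a call (adjusted p = 0.178). Cyp7b1, which hydroxylates oxysterols, lay between 5.27 and 5.84 in all pools by the probe set that stood for it, without a call. Another Cyp7b1 probe set, above background on all 8 arrays, gave -0.62 for males minus females in rsl (limma adjusted p = 0.0466). The first gave -0.27 there (adjusted p = 0.333). Cyp39a1, also an oxysterol hydroxylase, had 5.54 and 4.85 in rsl males against 4.95 and 4.93 in wild type males, and 4.38 and 4.48 in rsl females against 4.6 and 4.53 in wild type females. Its male pools all lay above the female pools, by 0.77 ± 0.20 in rsl (adjusted p = 0.0511, and 0.0497 with the replicate block). The Cyp39a1 difference was 0.42 without rsl male 1, with 1 rsl male pool left. Cyp46a1 was near background, and the bile acid genes Cyp7a1 and Cyp8b1 were above it in no whole group.

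For vitamin D, Cyp24a1 lay between 3.93 and 4.25, just above the bound on all arrays, and Cyp27b1 and Cyp2r1, the activating enzymes, were not above background on any array. For retinoic acid, Cyp26b1 had 4.07 and 4.13 in rsl males against 4.53 and 4.12 in wild type males, and 3.82 and 3.98 in rsl females against 4.14 and 3.84 in wild type females, while Cyp26a1 was above background in no whole group. Cyp20a1, whose substrate is not settled, had 9.14 and 9.40 in rsl males against 9.56 and 9.66 in wild type males, and 9.48 and 9.42 in rsl females against 9.55 and 9.63 in wild type females. All rsl pools lay below all wild type pools, by 0.24 ± 0.07 on average, which did not pass (adjusted p = 0.140). Another Cyp20a1 probe set, above background on all 8 arrays, did not have this difference, with 0.03 on average (adjusted p = 0.892). The last one gave -0.02.

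**Figure D4:**
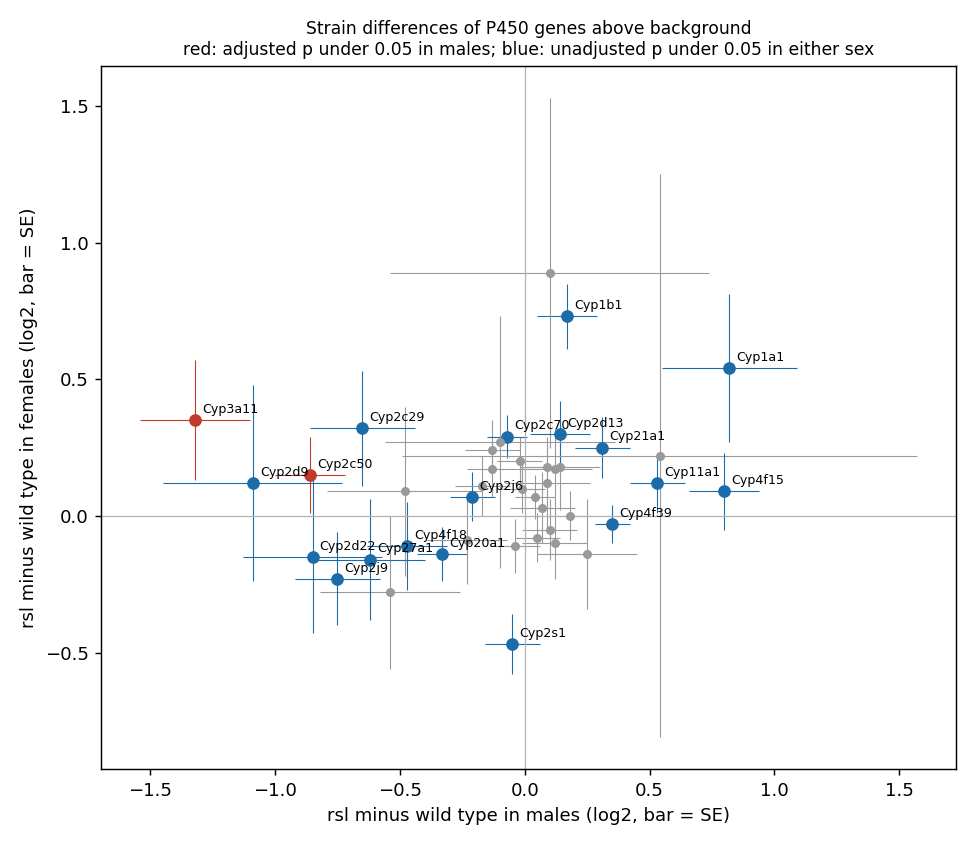
Difference of rsl from wild type in males (x axis) and in females (y axis) for the 42 P450 genes above background, in log2 units with SE bars. Cyp3a11 and Cyp2c50 (red) passed the threshold in males, at -1.32 and -0.86, where the value of Cyp2c50 is a fitted one since its rsl male arrays were below background, and Cyp1b1 has the largest female value among the labelled genes, at 0.73.

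The counts depended on single pools. Between strains in males, more members were called without rsl male 2 or wild type male 1, and fewer without wild type male 2. Between the sexes in rsl, more were called without rsl male 2, and fewer without any 1 female pool. In wild type, more were called without either rsl male pool, and fewer without any 1 female pool. In each of these settings the number of calls over all probe sets moved the same way. The directions differed between the sexes in wild type when either wild type male pool was left out. There slightly more members were called, while fewer of all probe sets were. A fit with a pool left out has 1 pool in that group. Cyp1b1 and Cyp2s1 were called between the sexes in both strains under each of the 15 alternatives run.

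All 9 measured electron transfer partners were above background on every array. Por, which feeds electrons to the microsomal enzymes, had 8.48 and 9.11 in rsl males against 9.03 and 9.34 in wild type males, and 9.29 and 9.39 in rsl females against 8.95 and 8.81 in wild type females, and passed in no comparison. Of these partners, 1 was higher and 0 lower in rsl than in wild type males, against 0.491% and 0.828% of all probe sets. That gene was Pgrmc1, a haem-binding partner of P450 enzymes, with 11.37 and 11.09 in rsl males against 10.52 and 10.43 in wild type males, and 10.61 and 10.67 in rsl females against 10.38 in both wild type female pools. It rose by 0.75 in rsl males (adjusted p = 0.0304) and by 0.51 on average (adjusted p = 0.0323), and the female difference of 0.26 did not pass. In rsl it was also higher in males than in females, by 0.59 (adjusted p = 0.0155), and Pgrmc2 was lower, by 0.71 (adjusted p = 0.0245). The mitochondrial donors Fdx1 and Fdxr passed in no comparison.

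Of 23 receptors and factors that control P450 genes, 0 passed between the strains in females, and 6 were lower in males than females in rsl, where 7.61% of all probe sets were called lower. Hnf4a, the hepatocyte nuclear factor, was 0.82 higher in males in rsl and 1.02 higher in wild type (adjusted p = 0.0287 and 0.0288). Pparg, the adipocyte regulator, and Nr1h3, a sterol receptor, were 1.3 and 0.97 lower in rsl males than rsl females (adjusted p = 0.0171 and 0.0328), and rsl male 1 was the lowest pool for both. The drug receptor Nr1i3 was above background on 1 array and the bile acid receptor Nr1h4 on 0.

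The haem list held 12 genes, of which 0 passed between strains in either sex. In rsl 4 were lower in males than females and 0 higher: Fech, the last enzyme of haem synthesis, Hmox1, the haem oxygenase, and Blvra and Blvrb, the biliverdin reductases, by 0.45 to 0.88. Over all probe sets of the same comparison, 7.61% were called lower and 4.73% higher. In wild type 1 was lower, Uros, by 0.52 (adjusted p = 0.0326), where 2.22% of all probe sets were called lower. Of 25 epoxide hydrolases and conjugating enzymes, 0 were higher and 1 lower in rsl males than wild type males, against 0.491% and 0.828% of all probe sets. In rsl females 1 was higher and 0 lower than in wild type females, against 0.115% and 0.0933%. The male comparison called Sult1e1, the oestrogen sulfotransferase, with 7.98 and 8.14 in rsl males and 9.34 and 9.87 in wild type males, a difference of -1.54 (adjusted p = 0.0197). It was 3.67 and 3.91 in rsl females and 4.11 and 4.05 in wild type females. The female comparison called Tpmt, a thiol methyltransferase, higher by 1.94 (adjusted p = 0.0302). Fmo2, a flavin oxygenase that shares substrates with P450 enzymes, was higher in males, by 0.62 in rsl and 1.32 in wild type (adjusted p = 0.0423 and 0.00798).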

How the data were processed

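The values analysed were log2 signals per probe set on Affymetrix mouse arrays of the PM design, which the authors made with RMA, per the submitters' processing notes (version not given in the sources used here). The other deposited table gave annotation text (gene symbols), a unit of its own with no measurement, and its 8 value columns, whose headings match no label, were not used. Arrays give no read depth, and the number of arrays limits the precision. Of 45141 probe sets, 104 controls were set aside and 45037 tested. The background bound was the highest of 22 non-specific controls with GC counts from 3 to 24.

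All 8 arrays entered a single unfiltered fit by limma 3.58.1 (R 4.3.3) that had a coefficient for each group (4 residual and 3 prior degrees of freedom). Tests are two-sided, and the Benjamini-Hochberg adjustment ran over every tested probe set in each contrast; calls have an adjusted p under 0.05. Errors of differences are moderated standard errors. Where both arrays of the dimmer group were at or below background, the fold is computed against the bound and given as at least that fold. Replicate numbers were checked as pairs: deviations of same-numbered arrays correlated at -0.048 to 0.115, and at 0.346 between male groups, so the main model has no block. On simulated data in which each group kept its own spread, the fit was tested and made calls among unchanged probe sets for the strains in males and none in the other comparisons simulated. The members, gene lists and alternatives were chosen with earlier results of these data known. Named genes are members past the threshold, the 15 with the highest mean, up to 4 per role by smallest p, those nearest the bound, and list members past the threshold or of smallest p; other members named were chosen after their values were seen. Results of some genes on the partner lists are not reported here.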

Additional observations from a re-analysis of the deposited data

How the results depend on the processing

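Each of the 6 comparisons was refitted under up to 15 alternatives, and none of the 12 called sex or strain differences of single members above background changed direction. In males, the count of members called between strains (2) became 0 in a fit of only the 2 groups, 4 with the replicate block, 1 on means of all probe sets of a gene, and 0 to 13 with an array left out. In females (0) it was 3 in the fit of only the 2 groups and 0 to 1 with an array left out. In the average (0) it was 1 with values floored at background and 0 to 10 with an array left out. Between the sexes, 5 calls in rsl became 2 to 13 and 5 in wild type became 2 to 9 with an array left out. The interaction (0) gave 0 to 7. The replicate block gave 6 calls between the sexes in each strain and 0 between strains in females, in the average and in the interaction, and moved no other count by over 1.5 times. Of the single calls, Cyp1b1 and Cyp2s1 kept theirs under all 15 alternatives in both strains, Cyp3a11 under 13 between the sexes in wild type and 7 between strains in males, Cyp2c50 under 10 and 7, Cyp2c44 under 8 in rsl and 10 in wild type, Cyp4f15 under 12 and Cyp4f39 under 5. The cause of the losses was not tested. A fit with an array left out has 1 pool in that group, which adds nothing to the estimate of the spread. The number of calls over all probe sets moved in these fits too. A correction of the scanner background was not run, since scanner files were not used here. Members close to the background bound, such as Cyp2c50 and Cyp4f39, have little room to show a fall.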
